A study of Homo sapiens with 9 samples.

Results

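The genes described here are 47 genes of DNA repair and the Fanconi anaemia pathway, out of 36225 genes in the deposited table. They were taken by gene name: every row whose symbol was on a list of 47 repair genes was kept, and each symbol matched a row. By role, 10 act in homologous strand exchange, 11 belong to the Fanconi anaemia core complex and its substrates, 10 act in end resection, DNA unwinding and junction processing, 8 sense breaks or signal to the cell cycle, 4 join DNA ends, and 4 belong to mismatch or base excision repair. All 47 passed the filter on low counts, so none drops out of the counts below.

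Messenger RNA was sequenced from RBE cells, an established line of human intrahepatic cholangiocarcinoma, a bile duct cancer, that is known to carry a mutant IDH1 allele. The 3 groups were cells infected with lentivirus for a short hairpin RNA against IDH1 (shIDH1), cells infected with lentivirus for a short hairpin RNA against JOSD2 (shJOSD2), and cells infected with scramble lentivirus (control), with 3 libraries each and 9 in all. All groups thus share the cell line and the infection with a lentivirus, and both hairpin groups are compared with the same 3 control libraries. IDH1 encodes the cytosolic isocitrate dehydrogenase and JOSD2 a deubiquitinase of the Josephin family. The sources used here do not give the number of hairpin sequences per gene, the time after infection or any selection or cloning of the cells. They also do not say whether libraries within a group stem from separate infections, and the p-values therefore capture only the spread between libraries, which may be technical.

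Homologous recombination copes with broken chromosomes and collapsed replication forks by copying the sister chromatid: nucleases trim the ends, BRCA1, PALB2 and BRCA2 prepare the trimmed strand for pairing with its copy, and helicases and nucleases then take the joined molecules apart. The Fanconi anaemia pathway handles covalent links between the DNA strands: a core complex attaches ubiquitin to the FANCD2 and FANCI pair, which then calls in nucleases and recombination factors. Many of these genes are transcribed mainly in S and G2 phase, when a sister chromatid is at hand, while the end-joining proteins Ku and DNA-PKcs are abundant throughout the cell cycle.

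The libraries held 66036276 to 71612713 deposited counts. About 4 counts seem to stem from many of the fragments, and sampling error then exceeds what those counts would give. IDH1 fell to 12.6 ± 0.446 FPKM in shIDH1 cells, against 44.0 ± 4.44 FPKM in control, and JOSD2 fell to 0.795 ± 0.101 FPKM in shJOSD2 cells, against 6.37 ± 0.260 FPKM in control (SD, n = 3 each). FPKM is a fragment count scaled for transcript length and library size. Each target was also lower under the other hairpin: JOSD2 averaged 1.68 ± 0.174 FPKM in shIDH1 cells and IDH1 34.5 ± 1.56 FPKM in shJOSD2 cells. In shIDH1 cells the fitted log2 changes of the targets were between -1.90 and -1.80, so JOSD2 fell about as far as IDH1. Effects of losing IDH1 and of losing JOSD2 cannot be told apart in shIDH1 cells. Of 9 biliary markers, 8 reached 1 FPKM in every group, with only CFTR under that level. Their summed level was 2017 to 2047 FPKM in shIDH1, 1542 to 1592 FPKM in shJOSD2 and 1624 to 1884 FPKM in control libraries, so the groups did not overlap. The summed level of 8 hepatocyte markers was uneven among the control libraries, at 92.3 to 97.8 FPKM in shIDH1, 57.3 to 59.2 FPKM in shJOSD2 and 38.2 to 86.7 FPKM in control libraries, and none of these markers stood at 0 throughout a group. The summed level of 6 fibroblast markers was 7.41 to 8.31 FPKM in shIDH1, 4.66 to 4.95 FPKM in shJOSD2 and 2.11 to 2.93 FPKM in control libraries, with LUM at 0 throughout each hairpin group and DCN throughout control. Of the 4 fibroblast markers tested, COL1A1, COL1A2 and PDGFRB were called higher in shIDH1 cells and PDGFRB in shJOSD2 cells. The part of these markers in the results was not tested.

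Nearly all of the repair genes fell in shIDH1 cells, and most fell to a lesser degree in shJOSD2 cells. Against control, shIDH1 cells had 42 of the 47 genes lower and 1 higher, with 4 not called (edgeR's quasi-likelihood test, adjusted by the Benjamini-Hochberg method, abbreviated BH, at p under 0.05). Among all 21492 tested genes, 50.2% were called in that comparison, 25.7% lower and 24.5% higher. The median log2 change of the 47 genes was -1.38, a 2.60-fold lower level, with a range of -3.43 to 0.45, where the median over all tested genes was 0.01. A fall of at least 2-fold was called for 30 of the 47 genes, against 9.31% of all tested genes. The FPKM range of the shIDH1 libraries lay wholly below that of the control libraries for 41 of the 47, against 28.3% of tested genes.

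In shJOSD2 cells 38 of the 47 genes were lower than in control, 1 was higher and 8 were not called by the same edgeR test. The background was 38.6% of tested genes called, with 20.2% lower and 18.3% higher. The median log2 change was -0.59, with a range of -1.53 to 0.49, beside 0.03 over all tested genes, and 10 of the 47 fell at least 2-fold, against 4.15% of tested genes. The FPKM ranges lay wholly below control for 34 of the 47, against 17.4% of tested genes. The shJOSD2 result rests on more than 1 control library: with control replicate 1 as the lone control, 25 of the 47 genes were called, 24 of them lower. Calls lost there were those of BRCA2, RAD51C, XRCC3, RAD54B, FANCA, FANCC, FANCE, FANCD2, FANCI, RMI2, MUS81, ATM, ATRIP, PRKDC and NEIL3, and PALB2 was called higher. In shIDH1 cells the same setting ended the calls of FANCE, WRN and CHEK2.

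Set directly against shJOSD2 cells, shIDH1 cells had 39 of the 47 genes lower and 2 higher, with 6 not called. In that comparison 45.1% of tested genes were called, 24.1% lower and 21.0% higher. The median log2 change was -0.74, with a range of -2.36 to 0.38, beside -0.06 over all tested genes, and 19 of the 47 differed by at least 2-fold, all lower in shIDH1 cells, against 7.89% of tested genes.

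**Figure D1:**
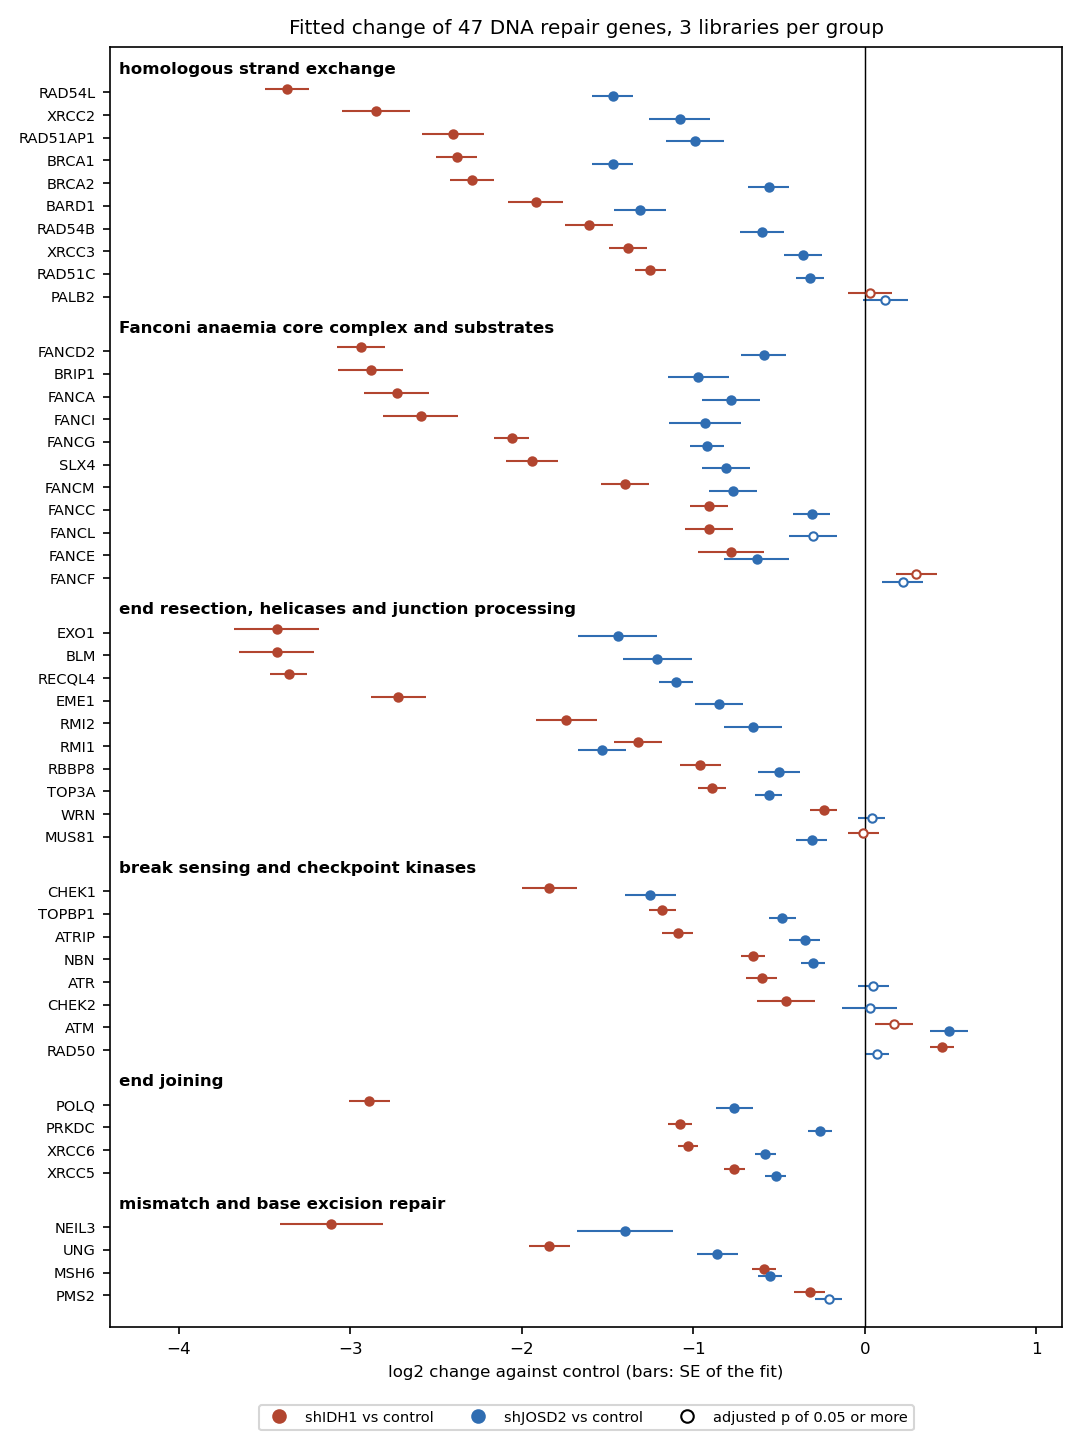
Fitted log2 change against control (x axis) of each of the 47 genes, grouped by role, in shIDH1 cells (red) and shJOSD2 cells (blue); bars are the SE of the fit over 3 libraries per group, and open circles mark genes with an adjusted p of 0.05 or more. Most red points lie left of the blue ones, exceptions include RMI1 and MUS81, and PALB2, FANCF, ATM and RAD50 lie near or right of 0.

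Levels per transcript length in control cells spanned a wide range, from 1.25 FPKM for BRCA2 and ATM to 162 FPKM for XRCC6. The median was 4.18 FPKM, and 40 of the 47 genes stood under 10 FPKM. The lowest count of any of these genes in a library was 33, for NEIL3. The summed FPKM of all 47 genes was 263, 235 and 229 in the shIDH1 libraries, 381, 395 and 387 in the shJOSD2 libraries, and 502, 511 and 552 in the control libraries. That sum is dominated by the 3 abundant end-joining genes XRCC5, XRCC6 and PRKDC.

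The genes that prepare single-stranded DNA for pairing and drive strand exchange had the lowest median change in shIDH1 cells among the 6 role groups. In shIDH1 cells 9 of the 10 fell, all of them at least 2-fold, with a median log2 change of -2.11. In shJOSD2 cells the median was -0.79, and 9 of the 10 fell, 4 of them at least 2-fold. PALB2 was the member not called in either comparison.

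RAD54L (ENSG00000085999, GRCh38 chromosome 1, 46246461 to 46278480, plus strand), a motor protein that helps the broken strand invade the sister duplex, changed most within this group. It stood at 0.699, 0.629 and 0.512 FPKM in shIDH1, 2.79, 2.47 and 2.41 FPKM in shJOSD2, and 6.0, 6.36 and 6.87 FPKM in control libraries. The 3 groups formed separate steps, with no overlap. The fitted log2 change was -3.37 ± 0.13 in shIDH1 cells (SE, a 10.4-fold lower level, adjusted p = 1.52e-10) and -1.47 ± 0.12 in shJOSD2 cells (2.78-fold lower, adjusted p = 4.17e-07, both edgeR's quasi-likelihood test, BH-adjusted). Of its exon bases, 25.1% overlap LRRC41 on the opposite strand, a gene with a level of 7.78 to 12.6 FPKM in all libraries.

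BRCA1, the ubiquitin ligase that promotes end resection and PALB2 recruitment, stood at 1.56, 1.30 and 1.18 FPKM in shIDH1, 2.76, 2.96 and 2.71 FPKM in shJOSD2, and 5.99, 6.74 and 8.33 FPKM in control libraries. It was lower in every hairpin library than in any control library, and lowest in shIDH1. Its log2 change was -2.38 ± 0.12 in shIDH1 cells and -1.47 ± 0.12 in shJOSD2 cells. BARD1, its obligate partner in the ligase, changed by -1.92 ± 0.16 and -1.31 ± 0.15 in the same comparisons, both called lower. In each case the level in shIDH1 cells was also below that in shJOSD2 cells, by 1.89-fold for BRCA1 (adjusted p = 2.11e-05) and 1.53-fold for BARD1 (adjusted p = 0.00472, edgeR's quasi-likelihood test, BH-adjusted).

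BRCA2, a central mediator of homologous recombination, had the lowest mean level of the 47 genes in control cells, 1.25 FPKM, level with ATM. BRCA2 stood at 0.267, 0.273 and 0.225 FPKM in shIDH1, 1.07, 0.851 and 0.901 FPKM in shJOSD2, and 1.21, 1.25 and 1.29 FPKM in control libraries. The shIDH1 libraries stood far below all others, while the shJOSD2 libraries lay just under the control range. The fitted log2 change of BRCA2 was -2.29 ± 0.13 in shIDH1 cells (adjusted p = 3.89e-09) and -0.56 ± 0.12 in shJOSD2 cells (adjusted p = 0.00219, both edgeR's quasi-likelihood test, BH-adjusted). The shJOSD2 call was lost with control replicate 1 as the lone control, where the change was -0.48.

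PALB2, which bridges BRCA1 to BRCA2, did not follow them. It stood at 4.29, 4.40 and 3.98 FPKM in shIDH1, 4.96, 4.82 and 5.18 FPKM in shJOSD2, and 3.54, 3.54 and 5.32 FPKM in control libraries. The control libraries disagreed among themselves, with replicate 3 above all others, and each hairpin group overlapped control. The shIDH1 libraries lay below the shJOSD2 libraries. Its log2 change was 0.03 ± 0.13 in shIDH1 cells (adjusted p = 0.880) and 0.12 ± 0.13 in shJOSD2 cells (adjusted p = 0.519, edgeR's quasi-likelihood test, BH-adjusted). Without control replicate 3 it was called higher in each, at 0.26 in shIDH1 and 0.35 in shJOSD2 cells.

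The other members of this group are translocases and accessory factors of strand exchange. XRCC2 changed by -2.85 ± 0.20 in shIDH1 cells and -1.08 ± 0.18 in shJOSD2 cells, and RAD51AP1, a DNA-binding protein that stimulates strand pairing, by -2.40 ± 0.18 and -0.99 ± 0.17. RAD54B, a relative of RAD54L, changed by -1.61 ± 0.14 and -0.60 ± 0.13, with 59.1% of its exon bases shared with FSBP on the same strand. With control replicate 1 as the lone control its shJOSD2 change was -0.53 and not called. RAD51C and XRCC3 had log2 changes of -1.25 and -1.38 in shIDH1 cells, both called. Their calls in shJOSD2 cells, -0.32 ± 0.08 for RAD51C and -0.36 ± 0.11 for XRCC3, were weak: with library size as the only scaling the changes were -0.17 and -0.20 and no longer called. XRCC3 also lost its shJOSD2 call without shJOSD2 replicate 2 (-0.28), without control replicate 2 (-0.35) and without control replicate 3 (-0.30), and 76.7% of its exon bases overlap KLC1 on the opposite strand.

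Because these genes moved together while PALB2 did not, their promoters were compared. RefSeq promoter sequences (GRCh38.p14, 250 bases before to 50 after the gene's start) were matched by symbol for 39 of the 47 genes; NBN, WRN, RAD54B, RECQL4, PRKDC, XRCC5, FANCI and RMI2 had none in that table. The 140 bases before the start are shown for 3 genes that fell at least 5-fold in shIDH1 cells and for PALB2, the uncalled one. The CCAAT box (CCAAT, or ATTGG on the other strand) is in capitals. These are examples, and each holds the box. Of the other genes with such falls, EXO1, FANCD2, POLQ, XRCC2 and EME1 held no box in the 250 bases before the start. Nor did BRCA1, but its window lay beside the outermost annotated end of the gene, which may not be its main start. BLM and BRIP1 belong to other role groups than the strand exchange genes. They are chr15:90717206-90717345 (plus strand) for BLM, chr17:61863529-61863668 (minus strand) for BRIP1, chr12:4538750-4538889 (plus strand) for RAD51AP1 and chr16:23641311-23641450 (minus strand) for PALB2.
BLM: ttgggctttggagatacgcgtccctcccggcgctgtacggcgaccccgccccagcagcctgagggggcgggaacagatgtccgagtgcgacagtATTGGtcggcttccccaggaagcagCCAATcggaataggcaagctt
BRIP1: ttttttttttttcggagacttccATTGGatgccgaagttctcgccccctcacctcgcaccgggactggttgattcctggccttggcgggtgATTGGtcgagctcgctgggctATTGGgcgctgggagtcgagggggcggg
RAD51AP1: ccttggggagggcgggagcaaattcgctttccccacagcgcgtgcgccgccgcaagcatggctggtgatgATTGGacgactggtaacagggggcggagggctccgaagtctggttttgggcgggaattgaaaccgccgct
PALB2: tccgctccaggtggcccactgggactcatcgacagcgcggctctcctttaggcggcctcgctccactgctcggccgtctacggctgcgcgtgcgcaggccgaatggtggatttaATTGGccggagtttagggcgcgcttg

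The box stood in promoters of genes that fell and of PALB2 alike. Over the 250 bases before the start, 19 of the 39 genes held CCAAT on either strand (48.7%), as did 34.4% of the promoters of tested genes and 33.0% of all promoters. The median log2 change in shIDH1 cells was -1.32 for the 19 with the box and -1.88 for the 20 without it. The words TTTCCCGC, TTTGGCGC, TTTCGCGC and TTTGCCGC, forms of the E2F site, were found in 3 of the 39 (7.7%, against 4.1% of tested genes and 2.8% of all promoters), in PMS2, FANCC and FANCA. Their median log2 change in shIDH1 cells was -0.91, beside -1.39 for the 36 without such a word. The word TTTGAA, the core of the CHR element of cell cycle genes, was found in 5 of the 39 (12.8%, against 9.2% of tested genes and 13.6% of all promoters), in POLQ, NEIL3, FANCC, ATM and BRIP1. For these 5 the median was -2.88, beside -1.35 for the 34 without it. Counted from the start, the word lay at -230 in POLQ, -240 in BRIP1 and -248 in FANCC. It lay nearer in NEIL3, at -24, and in ATM, at -20, and ATM was not called in shIDH1 cells (0.17). A match is a match of letters, and no match says only that these words are not in this window. BRCA1, whose window may not lie at its main start, is counted among the genes without each of these words.

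Of the 11 Fanconi anaemia genes, 10 fell in shIDH1 cells with a median log2 change of -1.94, 7 of them at least 2-fold, and 9 fell in shJOSD2 cells with a median of -0.77, none of them 2-fold. The furthest falls in shIDH1 cells were those of FANCD2, BRIP1, FANCA and FANCI. FANCF was called in neither comparison.

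FANCD2 (ENSG00000144554, chromosome 3, 10026414 to 10101932, plus strand), whose ubiquitination is the central step of the pathway, showed the widest gap between the hairpins among the 47 genes. It stood at 0.537, 0.450 and 0.451 FPKM in shIDH1, 2.56, 3.17 and 2.48 FPKM in shJOSD2, and 3.43, 3.30 and 4.44 FPKM in control libraries. The shIDH1 libraries stood well apart, and the highest shJOSD2 library came close to the lowest control library without overlap. The log2 change was -2.94 ± 0.14 in shIDH1 cells (7.70-fold lower, adjusted p = 6.43e-10), -0.59 ± 0.13 in shJOSD2 cells (adjusted p = 0.00185) and -2.36 ± 0.14 between shIDH1 and shJOSD2 cells (adjusted p = 6.87e-09, all edgeR's quasi-likelihood test, BH-adjusted). The shJOSD2 call was lost with control replicate 1 as the lone control, at -0.44. Stretches of FANCD2 are nearly identical to the pseudogenes FANCD2P2 and EMC3-AS1, so reads may be split between them.

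FANCI, which is ubiquitinated as FANCD2's partner, changed by -2.59 ± 0.22 in shIDH1 cells and -0.93 ± 0.21 in shJOSD2 cells. BRIP1, the helicase also called FANCJ, stood at 0.436, 0.230 and 0.260 FPKM in shIDH1, 1.28, 1.31 and 1.25 FPKM in shJOSD2, and 2.14, 2.03 and 2.62 FPKM in control libraries. Its 3 groups did not overlap, and the shJOSD2 libraries lay close together between the others. BRIP1 changed by -2.88 ± 0.19 in shIDH1 cells (adjusted p = 2.81e-08) and -0.97 ± 0.18 in shJOSD2 cells (adjusted p = 6.51e-04, edgeR's quasi-likelihood test, BH-adjusted).

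Within the core complex the falls in shIDH1 cells were uneven. FANCA and FANCG, which bind each other, fell by 2.73 ± 0.19 and 2.06 ± 0.10 on the log2 scale, while FANCC and FANCE, which form another subcomplex with FANCF, fell by 0.91 ± 0.11 and 0.78 ± 0.19, and the ubiquitin ligase FANCL fell by 0.91 ± 0.14. Of FANCA's exon bases, 23.6% overlap ZNF276, and of FANCL's, 18.7% overlap VRK2, each on the opposite strand. FANCF had the opposite sign: it stood at 6.55, 6.21 and 5.14 FPKM in shIDH1, 6.82, 6.30 and 5.64 FPKM in shJOSD2, and 5.47, 3.99 and 5.11 FPKM in control libraries. Every shJOSD2 library lay above every control library, while shIDH1 and control overlapped. The log2 change of 0.30 ± 0.12 in shIDH1 cells missed the threshold (adjusted p = 0.0557, edgeR's quasi-likelihood test, BH-adjusted), but passed it in DESeq2 at 0.31, with upper-quartile scaling at 0.41, and without control replicate 1 at 0.38, shIDH1 replicate 3 at 0.38 or shJOSD2 replicate 3 at 0.31. In shJOSD2 cells FANCF changed by 0.22 ± 0.12 (adjusted p = 0.174, same test) and was called higher at 0.37 with library size as the only scaling.

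In shJOSD2 cells the core complex changes were small. FANCA changed by -0.78 ± 0.17 and FANCG by -0.92 ± 0.10, FANCE by -0.63 ± 0.19 and FANCC by -0.31 ± 0.11, all called lower, while FANCL at -0.30 ± 0.14 was not called (adjusted p = 0.105, edgeR's quasi-likelihood test, BH-adjusted). The FANCC call was lost when shJOSD2 replicate 1 (-0.33), shJOSD2 replicate 2 (-0.22) or control replicate 1, 2 or 3 (-0.31, -0.32 and -0.29) was left out, and the FANCE call without shJOSD2 replicate 1 (-0.52) or control replicate 3 (-0.51). The FANCA call was lost with control replicate 1 as the lone control (-0.55), as was that of FANCI (-0.88). FANCM, the translocase that anchors the core complex on DNA, changed by -1.40 ± 0.14 in shIDH1 cells and -0.77 ± 0.14 in shJOSD2 cells, and SLX4, the scaffold of structure-specific nucleases, by -1.94 ± 0.15 and -0.81 ± 0.14.

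**Figure D2:**
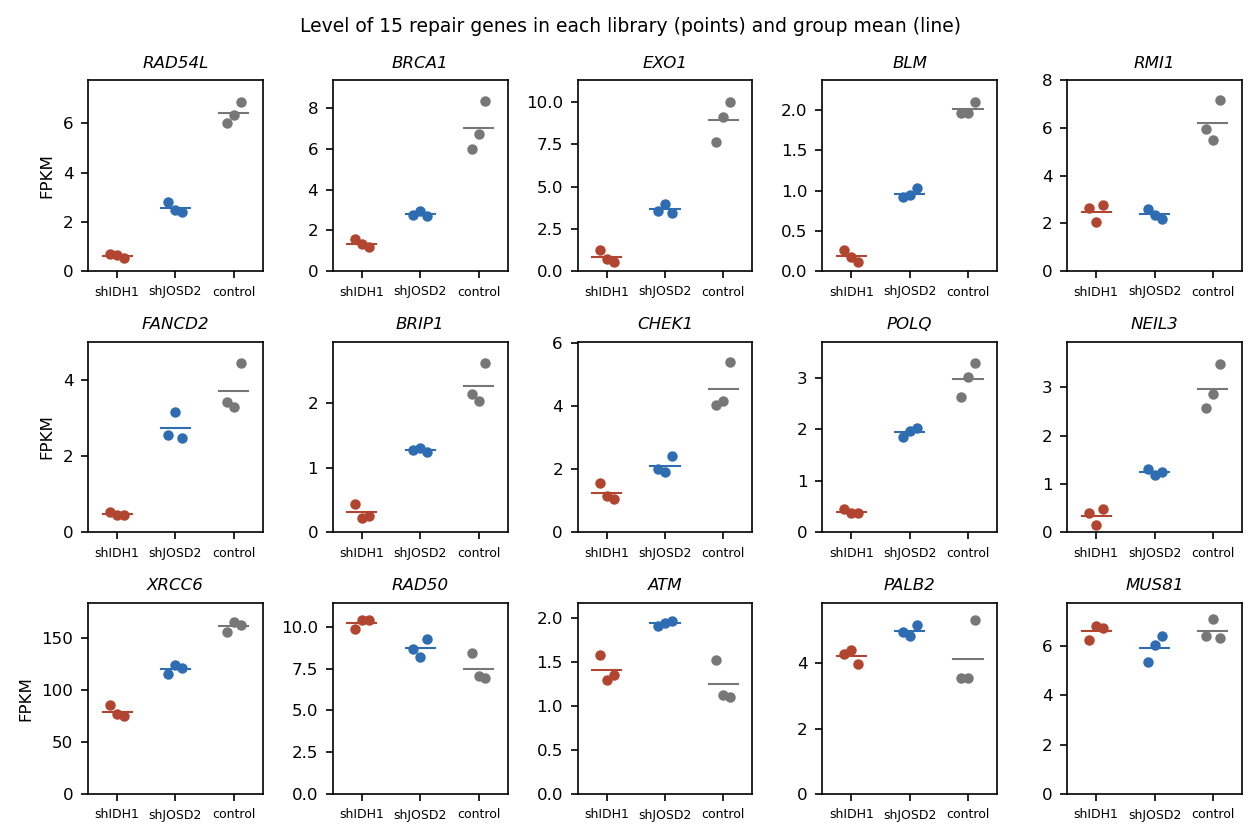
FPKM (y axis, from 0) of 15 repair genes in each of the 9 libraries, with points for libraries and a line for the group mean, in the order shIDH1, shJOSD2 and control. The first 11 panels show shIDH1 and shJOSD2 below control, with RMI1 at about the same level in both hairpins. RAD50 is highest in shIDH1 and ATM is highest in shJOSD2. For PALB2 and MUS81 each hairpin group overlaps control.

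Of the 10 genes of end resection, DNA unwinding and junction processing, 9 fell in shIDH1 cells, with a median log2 change of -1.53 and 6 falls of at least 2-fold. In shJOSD2 cells 9 fell, with a median of -0.75 and 4 falls of at least 2-fold. EXO1 and BLM had the lowest changes of all 47 genes in shIDH1 cells.

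EXO1, the exonuclease of long-range resection and mismatch repair, averaged 0.828 ± 0.356 FPKM in shIDH1, 3.64 ± 0.264 FPKM in shJOSD2 and 8.93 ± 1.21 FPKM in control libraries (SD, n = 3 each). The groups were separate, and shIDH1 replicate 1, at 1.23 FPKM, stood above the other shIDH1 libraries. EXO1 changed by -3.43 ± 0.25 in shIDH1 cells (10.8-fold lower, adjusted p = 1.06e-06) and -1.44 ± 0.23 in shJOSD2 cells (2.72-fold lower, adjusted p = 5.82e-04, edgeR's quasi-likelihood test, BH-adjusted). RBBP8, whose product CtIP starts resection, moved less, at -0.96 ± 0.12 and -0.50 ± 0.12.

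BLM (ENSG00000197299, chromosome 15, 90717346 to 90816166, plus strand) encodes the helicase that dissolves double Holliday junctions together with TOP3A, RMI1 and RMI2. It stood at 0.264, 0.177 and 0.116 FPKM in shIDH1, 0.916, 0.940 and 1.03 FPKM in shJOSD2, and 1.97, 1.97 and 2.10 FPKM in control libraries. The steps between groups were far wider than the spread inside them, although the shIDH1 values rest on 127, 85 and 58 counts. The log2 change was -3.43 ± 0.22 in shIDH1 cells (10.8-fold lower, adjusted p = 1.28e-08) and -1.21 ± 0.20 in shJOSD2 cells (2.31-fold lower, adjusted p = 2.36e-04, edgeR's quasi-likelihood test, BH-adjusted).

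The partners of BLM moved by different amounts. TOP3A, the topoisomerase, changed by -0.89 ± 0.08 in shIDH1 cells and -0.56 ± 0.08 in shJOSD2 cells, and RMI2 by -1.74 ± 0.18 and -0.65 ± 0.17. RMI1, the scaffold of the complex, stood at 2.64, 2.06 and 2.75 FPKM in shIDH1, 2.59, 2.33 and 2.19 FPKM in shJOSD2, and 5.95, 5.50 and 7.16 FPKM in control libraries. Its level was about the same under either hairpin, and every control library stood above every hairpin library. RMI1 had the largest fall of the 47 genes in shJOSD2 cells, -1.53 ± 0.14 (2.89-fold lower, adjusted p = 9.39e-07), beside -1.32 ± 0.14 in shIDH1 cells (adjusted p = 1.45e-06) and a difference of 0.21 ± 0.14 between shIDH1 and shJOSD2 cells that was not called (adjusted p = 0.230, edgeR's quasi-likelihood test, BH-adjusted). The RMI2 call in shJOSD2 cells was lost without shJOSD2 replicate 3 (-0.53) or control replicate 3 (-0.51).

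The RecQ helicases split. RECQL4, which takes part in replication initiation and resection, averaged 1.76 ± 0.239 FPKM in shIDH1, 9.35 ± 0.464 FPKM in shJOSD2 and 18.0 ± 1.41 FPKM in control libraries (SD, n = 3 each), with log2 changes of -3.36 ± 0.11 and -1.10 ± 0.10. WRN, the helicase and exonuclease mutated in Werner syndrome, stood at 3.19, 2.95 and 2.95 FPKM in shIDH1, 4.29, 4.09 and 3.79 FPKM in shJOSD2, and 3.47, 3.44 and 3.80 FPKM in control libraries. The shIDH1 libraries lay just below the others, and shJOSD2 and control overlapped. WRN changed by -0.24 ± 0.08 in shIDH1 cells (adjusted p = 0.0219) and by 0.04 ± 0.08 in shJOSD2 cells (adjusted p = 0.772, edgeR's quasi-likelihood test, BH-adjusted). The shIDH1 call was lost without shIDH1 replicate 2 (-0.22), shIDH1 replicate 3 (-0.23) or control replicate 3 (-0.19). It was also lost with upper-quartile scaling (-0.13) and in limma without a filter (-0.18).

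EME1 and MUS81 encode the subunits of 1 structure-specific nuclease, and only the gene of the regulatory subunit EME1 fell in shIDH1 cells. EME1 stood at 1.20, 0.800 and 0.763 FPKM in shIDH1, 3.51, 4.17 and 3.59 FPKM in shJOSD2, and 5.89, 6.25 and 6.18 FPKM in control libraries, in separate steps. EME1 changed by -2.72 ± 0.16 in shIDH1 cells and -0.85 ± 0.14 in shJOSD2 cells, and 16.4% of its exon bases overlap LRRC59 on the opposite strand. MUS81, the catalytic subunit, stood at 6.24, 6.82 and 6.74 FPKM in shIDH1, 5.35, 6.02 and 6.42 FPKM in shJOSD2, and 6.42, 7.08 and 6.34 FPKM in control libraries, with all groups overlapping. MUS81 changed by -0.01 ± 0.09 in shIDH1 cells (adjusted p = 0.968, edgeR's quasi-likelihood test, BH-adjusted), a value that turned positive under several alternatives, up to 0.11 with upper-quartile scaling. In shJOSD2 cells it was called lower at -0.31 ± 0.09, but not without shJOSD2 replicate 1 (-0.23), without control replicate 2 (-0.23) or with library size as the only scaling (-0.15). Of its exon bases 13.9% overlap the abundant CFL1 on the opposite strand, and the deposited counts do not state the strand setting.

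The 8 genes that sense breaks or carry the checkpoint signal moved least as a group. In shIDH1 cells 6 fell, RAD50 rose and ATM was not called, with a median log2 change of -0.62, and 3 fell at least 2-fold. In shJOSD2 cells 4 fell, ATM rose and 3 were not called, with a median of -0.13 and 1 fall of at least 2-fold.

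CHEK1 (ENSG00000149554, chromosome 11, 125625665 to 125676041, plus strand) encodes the kinase that ATR activates at stalled forks. It stood at 1.58, 1.14 and 1.06 FPKM in shIDH1, 2.00, 1.92 and 2.42 FPKM in shJOSD2, and 4.03, 4.17 and 5.38 FPKM in control libraries. The 3 groups did not overlap, and control replicate 3 stood above the other control libraries. The log2 change was -1.84 ± 0.16 in shIDH1 cells (adjusted p = 2.17e-07) and -1.25 ± 0.15 in shJOSD2 cells (adjusted p = 1.90e-05, edgeR's quasi-likelihood test, BH-adjusted). TOPBP1, the activator of ATR, and ATRIP, its partner, changed by -1.18 ± 0.08 and -1.09 ± 0.09 in shIDH1 cells and by -0.48 ± 0.08 and -0.35 ± 0.09 in shJOSD2 cells. The ATRIP call in shJOSD2 cells was lost with library size as the only scaling (-0.20), and 27.9% of its exon bases are shared with TREX1 on the same strand.

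The apical kinases and CHEK2 gave a different picture under each hairpin. ATR stood at 1.11, 1.13 and 1.01 FPKM in shIDH1, 1.76, 1.84 and 2.03 FPKM in shJOSD2, and 1.87, 1.42 and 1.64 FPKM in control libraries, so only shIDH1 stood apart. It changed by -0.60 ± 0.09 in shIDH1 cells (adjusted p = 4.60e-05) and by 0.05 ± 0.09 in shJOSD2 cells (adjusted p = 0.721), and was 1.56-fold lower in shIDH1 than in shJOSD2 cells (adjusted p = 2.77e-05, edgeR's quasi-likelihood test, BH-adjusted). CHEK2, the kinase downstream of ATM, stood at 1.64, 1.16 and 1.0 FPKM in shIDH1, 2.17, 1.92 and 1.87 FPKM in shJOSD2, and 1.70, 1.60 and 1.96 FPKM in control libraries. The shIDH1 libraries were spread out and overlapped the control range. CHEK2 was called lower in shIDH1 cells, at -0.46 ± 0.17 (adjusted p = 0.0312, edgeR's quasi-likelihood test, BH-adjusted). That call was lost without shIDH1 replicate 2 (-0.41), shIDH1 replicate 3 (-0.33) or control replicate 3 (-0.37). It was also lost with upper-quartile scaling (-0.35), with only the groups compared (-0.45) and in limma without a filter (-0.29). The change of CHEK2 in shJOSD2 cells was 0.03 ± 0.16 and not called.

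ATM, the kinase that responds to chromosome breaks, was the member higher in shJOSD2 cells. It stood at 1.58, 1.30 and 1.35 FPKM in shIDH1, 1.91, 1.95 and 1.97 FPKM in shJOSD2, and 1.53, 1.13 and 1.10 FPKM in control libraries. All shJOSD2 libraries stood above all others, and shIDH1 overlapped control, whose replicate 1 was high. The log2 change was 0.49 ± 0.11 in shJOSD2 cells (adjusted p = 0.00219) and 0.17 ± 0.11 in shIDH1 cells (adjusted p = 0.207, edgeR's quasi-likelihood test, BH-adjusted). Against control replicate 1 alone the shJOSD2 value was 0.23 and not called, and the shIDH1 value was -0.08. Without control replicate 1 the shIDH1 value was 0.33 and called higher. The difference between shIDH1 and shJOSD2 cells, -0.32, was called (adjusted p = 0.0252, same test), but not without shIDH1 replicate 2 (-0.26), shIDH1 replicate 3 (-0.30) or shJOSD2 replicate 1, 2 or 3 (-0.32, -0.31 and -0.31).

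RAD50, the coiled-coil ATPase of the MRE11, RAD50 and NBN complex that first binds a broken end, was the member higher in shIDH1 cells. It stood at 9.87, 10.4 and 10.4 FPKM in shIDH1, 8.65, 8.21 and 9.24 FPKM in shJOSD2, and 8.42, 7.06 and 6.92 FPKM in control libraries. Every shIDH1 library stood above every other library. In shIDH1 cells it rose by 0.45 ± 0.07 on the log2 scale (adjusted p = 1.15e-04) and changed by 0.07 ± 0.07 in shJOSD2 cells (adjusted p = 0.479, edgeR's quasi-likelihood test, BH-adjusted), where it was called higher at 0.23 with library size as the only scaling. It stood 1.30-fold higher in shIDH1 than in shJOSD2 cells (adjusted p = 6.16e-04, same test). NBN, the complex's regulatory subunit, had the opposite sign, at -0.65 ± 0.07 in shIDH1 and -0.30 ± 0.07 in shJOSD2 cells, the second of which was not called with library size as the only scaling (-0.14). A read-through gene shares 79.7% of RAD50's exon bases on the same strand, at no more than 0.0556 FPKM in any library.

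All 4 end-joining genes fell under each hairpin, with median log2 changes of -1.05 in shIDH1 and -0.55 in shJOSD2 cells. POLQ, the polymerase of the alternative, microhomology-based pathway, moved far more in shIDH1 cells than the genes of the classical pathway. It stood at 0.459, 0.367 and 0.374 FPKM in shIDH1, 1.85, 1.96 and 2.03 FPKM in shJOSD2, and 2.62, 3.01 and 3.28 FPKM in control libraries, in 3 separate steps. Its log2 change was -2.89 ± 0.12 in shIDH1 cells (7.41-fold lower, adjusted p = 2.49e-10), -0.76 ± 0.11 in shJOSD2 cells (adjusted p = 8.43e-05) and -2.13 ± 0.12 between shIDH1 and shJOSD2 cells (adjusted p = 5.17e-09, edgeR's quasi-likelihood test, BH-adjusted).

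The Ku subunit gene XRCC6 was the most abundant of the 47. It stood at 85.9, 77.1 and 75.5 FPKM in shIDH1, 116, 124 and 121 FPKM in shJOSD2, and 156, 166 and 163 FPKM in control libraries, again without overlap. XRCC6 changed by -1.03 ± 0.06 in shIDH1 cells (2.04-fold lower, adjusted p = 7.14e-09) and -0.58 ± 0.06 in shJOSD2 cells (1.49-fold lower, adjusted p = 5.36e-06, edgeR's quasi-likelihood test, BH-adjusted). XRCC5, the other Ku subunit, changed by -0.76 ± 0.06 and -0.52 ± 0.06, and PRKDC, the DNA-PK catalytic subunit that Ku recruits, by -1.08 ± 0.07 and -0.26 ± 0.07. The PRKDC call in shJOSD2 cells was lost without shJOSD2 replicate 3 (-0.22) and with library size as the only scaling (-0.10).

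Of the mismatch and base excision repair genes, all 4 fell in shIDH1 cells with a median log2 change of -1.21, and 3 fell in shJOSD2 cells with a median of -0.71. NEIL3, a glycosylase that also unhooks strand crosslinks, stood at 0.394, 0.159 and 0.481 FPKM in shIDH1, 1.31, 1.18 and 1.25 FPKM in shJOSD2, and 2.57, 2.86 and 3.49 FPKM in control libraries. The groups did not overlap, but the shIDH1 values rest on 83, 33 and 105 counts and vary the most. Its log2 change was -3.11 ± 0.30 in shIDH1 cells (8.60-fold lower, adjusted p = 9.50e-07) and -1.40 ± 0.28 in shJOSD2 cells (2.64-fold lower, adjusted p = 0.00112, edgeR's quasi-likelihood test, BH-adjusted). The shJOSD2 call was lost with control replicate 1 as the lone control, at -1.16.

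UNG, which removes uracil from DNA, changed by -1.84 ± 0.12 in shIDH1 cells and -0.86 ± 0.12 in shJOSD2 cells. MSH6, a mismatch-recognition subunit, changed by nearly the same amount under either hairpin, -0.59 ± 0.07 and -0.55 ± 0.07. The difference between shIDH1 and shJOSD2 cells, -0.04 ± 0.07, was not called (adjusted p = 0.711, edgeR's quasi-likelihood test, BH-adjusted). Of MSH6's exon bases, 16.2% overlap FBXO11 on the opposite strand, a gene at 5.06 to 7.11 FPKM in all libraries. PMS2, the mismatch endonuclease subunit, fell by 0.32 ± 0.09 in shIDH1 cells and was not called at -0.21 ± 0.08 in shJOSD2 cells (adjusted p = 0.0677, same test). The shIDH1 call was lost with upper-quartile scaling (-0.21), the shJOSD2 change was called in DESeq2 (-0.22), and the difference between the hairpins was called with library size as the only scaling (-0.27) and in limma on log2(FPKM + 1) and log2(FPKM + 0.1) (-0.20 and -0.25). The pseudogene PMS2CL matches 1609 bases of PMS2 at 98.1% identity, at 3.05 to 4.56 FPKM, so the PMS2 counts are uncertain.

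Ratios within a library, which need no scaling between libraries, describe how genes whose products work as partners moved relative to each other. The 8 pairs were chosen after their values were seen, several of them for unequal changes, so the ratios are given as a description with no test. The EME1 to MUS81 ratio was 0.192, 0.117 and 0.113 in shIDH1, 0.656, 0.693 and 0.559 in shJOSD2, and 0.917, 0.882 and 0.976 in control libraries, so 3 levels were seen with no overlap. The BLM to TOP3A ratio was 0.0736, 0.0559 and 0.0318 in shIDH1, 0.201, 0.194 and 0.205 in shJOSD2, and 0.311, 0.329 and 0.304 in control libraries, in the same order. The BRCA2 to PALB2 ratio was 0.0623, 0.0621 and 0.0567 in shIDH1, 0.216, 0.176 and 0.174 in shJOSD2, and 0.342, 0.353 and 0.243 in control libraries.

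The other 5 ratios moved less. The BARD1 to BRCA1 ratio was 0.537, 0.491 and 0.467 in shIDH1, 0.431, 0.399 and 0.391 in shJOSD2, and 0.378, 0.351 and 0.366 in control libraries, above control in every hairpin library. The XRCC5 to XRCC6 ratio was 0.550, 0.561 and 0.552 in shIDH1, 0.472, 0.483 and 0.479 in shJOSD2, and 0.476, 0.439 and 0.473 in control libraries, above control in shIDH1 and overlapping it in shJOSD2. The FANCI to FANCD2 ratio overlapped control in shIDH1 and lay below control in shJOSD2. The NBN to RAD50 ratio and the ATRIP to ATR ratio lay below control in every hairpin library.

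**Figure D3:**
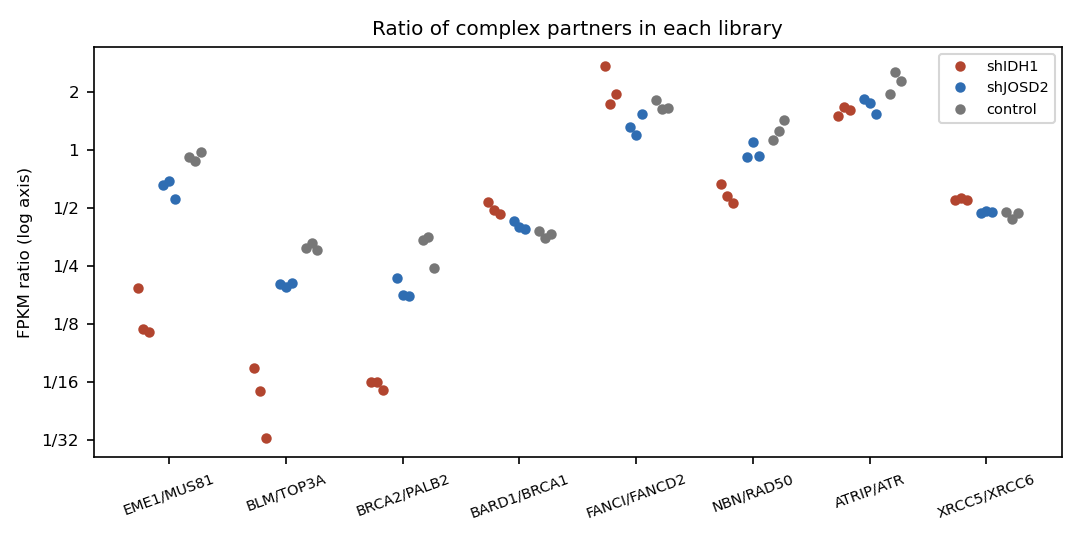
Ratio of the FPKM values of 8 pairs of genes with partner products in each library (y axis, log scale), with red points for shIDH1, blue for shJOSD2 and grey for control. The EME1 to MUS81, BLM to TOP3A and BRCA2 to PALB2 ratios form 3 separate levels, lowest in shIDH1, while the XRCC5 to XRCC6 ratio stays between 0.439 and 0.561 in all libraries.

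Other repair genes, from 8 lists that do not hold the 47, had a smaller median change and moved in both directions. Of their 127 genes, 74 were lower, 18 higher and 35 not called in shIDH1 cells, with a median log2 change of -0.38, and 62 were lower, 14 higher and 51 not called in shJOSD2 cells, with a median of -0.26 (same edgeR test). Among 24 other homologous recombination genes, 12 fell and 4 rose in shIDH1 cells (median -0.33), and 13 fell and 2 rose in shJOSD2 cells (median -0.25). PSMC3IP, a cofactor of strand exchange, changed by -2.00 ± 0.16 in shIDH1 and -1.62 ± 0.16 in shJOSD2 cells, and HROB, which helps load the MCM8 and MCM9 helicase, by -2.04 ± 0.18 and -0.89 ± 0.18.

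Among 16 other Fanconi and crosslink repair genes, 11 fell and none was called higher in shIDH1 cells (median -0.87), and 11 fell and 1 rose in shJOSD2 cells (median -0.66). UBE2T, the enzyme that conjugates ubiquitin to FANCD2, averaged 4.50 ± 1.17 FPKM in shIDH1, 5.73 ± 0.371 FPKM in shJOSD2 and 22.2 ± 2.14 FPKM in control libraries (SD, n = 3 each), with log2 changes of -2.31 ± 0.15 and -2.10 ± 0.15. The ligase RFWD3 changed by -2.05 ± 0.08 and -1.47 ± 0.08, and the core complex gene FANCB by -2.46 ± 0.37 and -1.17 ± 0.35. Among 18 other checkpoint and break signalling genes, 12 fell and 3 rose in shIDH1 cells (median -1.12), and 11 fell and 1 rose in shJOSD2 cells (median -0.40). The histone gene H2AX, whose product is phosphorylated at breaks, changed by -3.93 ± 0.19 and -1.79 ± 0.17, CLSPN, the claspin adaptor of CHEK1, by -3.43 ± 0.25 and -1.92 ± 0.23, and RPA2, which coats single-stranded DNA, by -2.21 ± 0.21 and -0.50 ± 0.20, the last not called.

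Falls also outnumbered rises in base excision, end joining and mismatch repair. Of 20 other genes of base excision and strand-break repair, 15 fell and 1 rose in shIDH1 cells (median -0.37), and 13 fell and 2 rose in shJOSD2 cells (median -0.32). The flap nuclease FEN1 changed by -2.80 ± 0.13 and -1.13 ± 0.12, the nuclease APEX2 by -2.19 ± 0.13 and -1.10 ± 0.13, and PARP1, the sensor of nicked DNA, by -1.74 ± 0.06 and -0.77 ± 0.06. Of 13 other end-joining genes, 5 fell and 2 rose in shIDH1 cells (median -0.21), and 4 fell and 1 rose in shJOSD2 cells (median -0.06). The end-joining shares that fell, 38.5% and 30.8%, were nearest to those of all tested genes, 25.7% and 20.2%, among the lists of this paragraph. Here PAXX changed by -1.17 ± 0.10 and -0.80 ± 0.09, NHEJ1 by -1.11 ± 0.11 and -0.41 ± 0.11, and TDP1, which clears blocked DNA ends, by -0.91 ± 0.08 and -0.54 ± 0.08. Of 5 other mismatch repair genes, 3 fell in shIDH1 cells (median -0.51) and 4 in shJOSD2 cells (median -0.40). MSH3, which recognises larger loops, changed by -0.51 ± 0.11 and -0.40 ± 0.11.

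The lists of nucleotide excision repair and of direct reversal and bypass moved in both directions. The background was 25.7% of tested genes lower and 24.5% higher in shIDH1 cells, and 20.2% lower and 18.3% higher in shJOSD2 cells. Of 21 nucleotide excision repair genes, 10 fell and 5 rose in shIDH1 cells (median -0.19), and 5 fell and 4 rose in shJOSD2 cells (median -0.07), so the rises under either hairpin and the falls in shJOSD2 cells were near the background. RAD23B, which steadies the damage sensor XPC, moved in opposite directions, at 0.35 ± 0.07 in shIDH1 and -1.10 ± 0.07 in shJOSD2 cells, both called. CETN2, another XPC partner, changed by -1.24 ± 0.07 and -0.64 ± 0.07, and GTF2H4, a TFIIH subunit, by -1.13 ± 0.24 and -0.26 ± 0.24, the second not called. Of 10 genes of direct reversal and translesion synthesis, 6 fell and 3 rose in shIDH1 cells (median -0.27), and 1 fell and 3 rose in shJOSD2 cells (median 0.11). REV3L, the catalytic subunit of polymerase zeta, rose by 1.0 ± 0.07 in shIDH1 and 1.06 ± 0.07 in shJOSD2 cells, POLK, another bypass polymerase, rose by 0.84 ± 0.07 in shIDH1 cells and was not called at 0.12 ± 0.07 in shJOSD2 cells, and RAD18, the ligase that starts bypass, changed by -1.49 ± 0.10 and -0.57 ± 0.10.

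**Figure D4:**
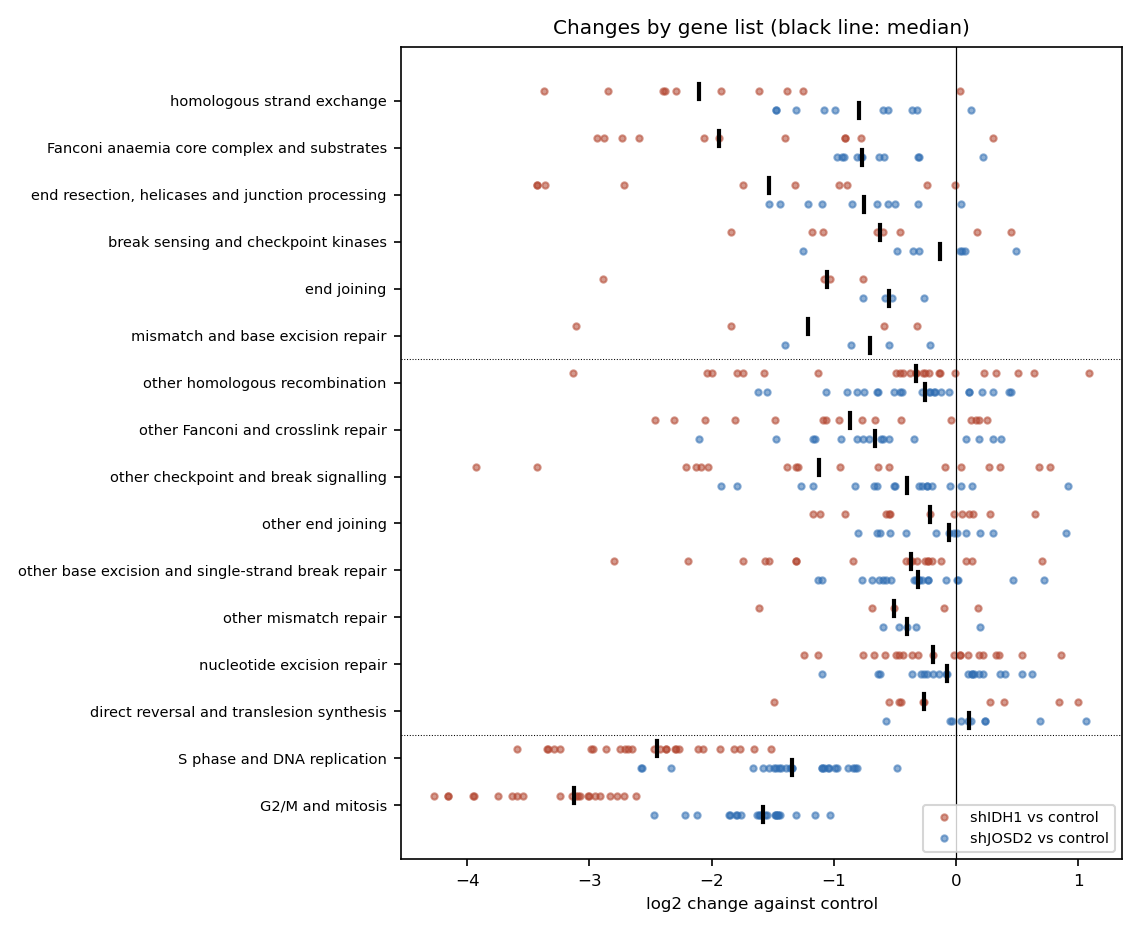
Fitted log2 change against control (x axis) of every gene in the 6 role groups of the 47 genes (top), 8 lists of other repair genes (middle) and 2 cell cycle lists (bottom), in red for shIDH1 and blue for shJOSD2, with a black line at each median. The cell cycle lists lie furthest left, and the medians of the nucleotide excision repair and other end-joining lists lie nearest to 0.

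Genes of the cell cycle fell along with the repair genes. All 26 genes of S phase and DNA replication were lower in shIDH1 cells (median log2 change -2.44) and 25 in shJOSD2 cells (median -1.34), and all 22 genes of G2/M and mitosis were lower in each (medians -3.13 and -1.58). The summed FPKM of the S phase list was 153, 121 and 120 in shIDH1, 316, 331 and 336 in shJOSD2, and 581, 677 and 770 in control libraries. The summed FPKM of the G2/M list was 95.8, 71.9 and 65.9 in shIDH1, 282, 286 and 286 in shJOSD2, and 720, 826 and 892 in control libraries. Within the shIDH1 and control groups the repair genes leaned the same way. Replicate 1 of shIDH1, highest of its group in both sums, led for 32 of the 47 repair genes (68.1%, against 42.0% of tested genes). Control replicate 3, also highest of its group in both sums, led for 35 of the 47 (74.5%, against 32.6%). The shJOSD2 libraries, whose sums lay close together, showed no such lean. There replicate 1, lowest in both sums, led for 17 of the 47 (36.2%, against 32.4%). Replicate 3, with the highest S phase sum, led for 15 (31.9%, against 35.6%). The part of cell cycle composition in these results was not tested, and in these bulk libraries fewer cells in a phase and less RNA per cell cannot be told apart.

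By their outermost annotated ends, many of the 47 genes start near a neighbour that is transcribed the other way, and these neighbours did not all follow. Within 1000 bases, 20 of the 47 had such a partner, and how common this is among all genes was not tested. Of 18 tested partners, 10 fell, 3 rose and 5 were not called in shIDH1 cells, against 8, 2 and 8 in shJOSD2 cells. Among all tested genes 25.7% were lower and 24.5% higher in shIDH1 cells, and 20.2% lower and 18.3% higher in shJOSD2 cells. Falls of the partners were thus above these shares and rises below them. MCM4, a subunit of the replicative helicase whose start lies 7 bases from that of PRKDC, changed by -3.35 ± 0.19 in shIDH1 and -1.36 ± 0.18 in shJOSD2 cells, far more than PRKDC. LRRC14, 147 bases from RECQL4, changed by -0.01 ± 0.09 and 0.02 ± 0.09, called in neither, beside the large falls of RECQL4. NBR1 lay 236 bases from the outermost annotated end of BRCA1, which may not be the main start of BRCA1. NBR1 rose by 0.33 ± 0.06 in shIDH1 cells, where BRCA1 fell. DCTN5, 156 bases from PALB2, was lower at -0.89 ± 0.06 and -0.32 ± 0.06, where PALB2 was not called. These 4 pairs were chosen after their values were seen.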

How the data were processed

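Poly(A) RNA of 9 RBE libraries was made into strand-marked paired-end libraries with molecular identifiers and sequenced on an Illumina instrument, per the labels' protocols. Per the submitters' processing notes, the tools included HISAT2 2.0.4, StringTie 1.3.4d, cutadapt 1.9 and UMI-tools, on GRCh38. What each did, how reads were counted, with which strand setting, and from which annotation is not given in the sources used here. Per the file headers the table holds a count and an FPKM column for each library. The deposited counts are whole and unnormalized numbers. The deposited FPKM values are scaled for length and library size. Small counts piled up at 4, 8 and 12 (10737, 5322 and 3149 values), from which roughly 4 counts per fragment were inferred. Counts of 1 and 2 were also common (9771 and 8761 values), so the factor cannot hold for every fragment.

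The 47 genes, the other lists and the alternatives were chosen with earlier results of these data known. Counts of all genes from the 9 libraries entered 1 fit in edgeR 4.0.16 (R 4.3.3) with a mean per group, filterByExpr, TMM factors and robust quasi-likelihood tests, adjusted by Benjamini-Hochberg over the 21492 tested genes at 0.05. The SE is that of the fitted log2 change, which is on the TMM scale, so it can differ from a ratio of FPKM means. The procedure was tested on simulated data. Every library differed from the others of its group beyond sampling noise.

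Library values were given, in each role group, for the gene with the largest change under each hairpin, for genes called higher, for genes called between hairpins with opposite signs against control, and for the highest and lowest control level. BRCA1, EXO1, EME1, MUS81, PALB2 and FANCF were added after their values were seen. From each other repair list, up to 3 called genes with the largest change were named. A few genes that this rule held are not reported here. Promoter sequences came from RefSeq, and exon overlaps and similar copies (at least 95% identity over 200 bases) from GENCODE, both on GRCh38. Alternatives were DESeq2 1.42.0, other scalings and filters, limma 3.58.1 on log2 FPKM with a pseudocount of 1 or 0.1, a replicate block, each library left out, and control replicate 1 as the lone control, which is then assumed to vary like the other groups. Figures were drawn with matplotlib 3.10.9.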

Additional observations from a re-analysis of the deposited data

How the results depend on the processing

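Among the 47 genes, falls outnumbered rises under all 23 alternatives in each comparison with control. The same held under the 22 between shIDH1 and shJOSD2 cells, where the lone control does not enter. The median log2 change of the 47 genes was negative throughout. Over all tested genes the balance depended on the scaling. In shJOSD2 cells 4350 were lower and 3942 higher, against 2953 and 5704 with library size only and 3517 and 4881 with upper-quartile scaling. In shIDH1 cells 5516 were lower and 5264 higher, against 4681 and 6198 with upper-quartile scaling. The background shares given above therefore hold for the main scaling only. The median in shIDH1 cells moved from -1.38 to -1.27 with upper-quartile scaling, which raised the median of all genes to 0.12, to -1.0 and -1.29 in limma on log2(FPKM + 1) and log2(FPKM + 0.1), to -1.0 in limma without a filter, and to -1.26 with the lone control. The median in shJOSD2 cells moved from -0.59 to -0.50 with upper-quartile scaling (all genes 0.12), -0.44 with library size only (all genes 0.18), -0.34 and -0.43 in the limma fits (all genes 0.08 and 0.14), -0.34 in limma without a filter, and -0.52 with the lone control, where 25 of the 47 genes were called. Between shIDH1 and shJOSD2 cells it moved from -0.74 to -0.90 with library size only (all genes -0.21), -0.62 and -0.86 in limma, and -0.62 without a filter. For shIDH1 against control, shJOSD2 against control and shIDH1 against shJOSD2 in that order, leaving out 1 library gave medians that ranged from -1.43 to -1.30, -0.62 to -0.51 and -0.80 to -0.71, and the called genes from 41 to 45, 36 to 39 and 37 to 41. Single genes lost their call 15, 70 and 16 times over all alternatives, in the same order. Deviations of same-numbered libraries correlated at -0.02 to 0.04, so replicate numbers were not taken as pairs. With the replicate block, 44, 38 and 41 genes were called and the medians were -1.39, -0.59 and -0.74; the block made FANCF a call in shIDH1 cells (0.30) and ended that of FANCC in shJOSD2 cells (-0.31), and changed no other call among the 47.

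Signs turned only for genes near 0 that were not called. PALB2 in shIDH1 cells was -0.01 without shIDH1 replicate 2, -0.07 without control replicate 1 and -0.06 without control replicate 2, and called at 0.26 without control replicate 3. MUS81 in shIDH1 cells was 0.01 in DESeq2, with RLE factors, with only the groups compared and without any shJOSD2 replicate, 0.02 with a filter of 100 counts and with counts divided by 4, 0.04 without shIDH1 replicate 1, 0.07 without control replicate 2, 0.08 with the lone control and 0.11 with upper-quartile scaling. With the lone control, ATM was -0.08 in shIDH1 cells, and ATR and RAD50 were -0.11 and -0.07 in shJOSD2 cells. In shJOSD2 cells ATR was -0.03 and CHEK2 -0.01 without control replicate 2, and CHEK2 was -0.03 and WRN -0.00051 without shJOSD2 replicate 1. FANCF between shIDH1 and shJOSD2 cells was -0.08 with library size only and -0.06, -0.07 and -0.06 in limma. The cause of these changes was not tested. Precision is limited by depth for BLM and NEIL3 in shIDH1 cells, whose libraries held 58 to 127 and 33 to 105 counts.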

Other observations

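Some repair genes outside the 47 rose while most fell. Those named here were chosen after their values were seen, from the 18 called higher in shIDH1 cells. ZSWIM7, a homologous recombination factor, averaged 5.65 ± 0.203 FPKM in shIDH1, 4.02 ± 0.302 FPKM in shJOSD2 and 2.63 ± 0.215 FPKM in control libraries (SD, n = 3 each), with fitted log2 changes of 1.09 ± 0.11 and 0.45 ± 0.11. XPA, a scaffold of nucleotide excision repair, averaged 10.8 ± 1.12 FPKM in shIDH1, 10.2 ± 0.873 FPKM in shJOSD2 and 5.97 ± 1.26 FPKM in control libraries. RAD9A, a subunit of the checkpoint clamp, changed by 0.68 in shIDH1 and 0.92 in shJOSD2 cells, and RAD17, its loader, by 0.77 and 0.13, the second not called. The glycosylase NEIL1 rose by 0.70 and 0.72, where its relative NEIL3 fell. The end-joining partners XRCC4 and LIG4 differed: XRCC4 rose by 0.28 in shIDH1 and 0.90 in shJOSD2 cells, and LIG4 rose by 0.65 in shIDH1 cells and was not called at -0.16 in shJOSD2 cells.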
